A study of Mus musculus with 12 samples.

Results

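The livers of mice conceived by in vitro fertilization (IVF) were compared with those of naturally conceived mice in each sex, and the genes described here are those whose IVF effect had opposite directions in females and males. They were chosen by the signs of 2 fitted log2 fold changes, IVF against natural females and IVF against natural males, and their difference (the interaction, male effect minus female effect) was the test. Of 13204 genes that passed a filter on low counts, 6717 had opposite signs, which is 50.9%, close to an even division. These comprised 3104 genes (23.5%) that were higher in IVF females and lower in IVF males, and 3613 (27.4%) that were lower in IVF females and higher in IVF males. The other 6487 tested genes had the same direction in both sexes. In 29 of the opposed genes a group held at most 3 counts over its 3 libraries, so that the direction there rests on almost no reads. The table held 24527 gene symbols, of which 19029 had a count in at least 1 library.

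All animals were 39 weeks old and were offspring of CF1 females and B6SJL males, 2 mouse stocks crossed here, and the naturally conceived animals of that cross were the controls. IVF embryos are made by joining eggs and sperm in a dish before transfer to a recipient, and the labels credit the IVF protocol to the Jackson Laboratory. There were 4 groups, IVF females, natural females, IVF males and natural males, with n = 3 messenger RNA libraries of whole liver each. The labels do not say whether animals were littermates (the titles of IVF female 1 and IVF male 2 share a number whose meaning is not given), so the p-values measure the spread between these libraries.

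The liver differs between the sexes more than most organs. The pulsed growth hormone of males and the steadier pattern of females set many hepatocyte genes, among them cytochrome P450 enzymes and sulfotransferases, and estrogen acts on the liver through the receptor made from Esr1. The liver also makes cholesterol under the control of the transcription factor SREBP2, secretes acute-phase proteins in response to inflammatory cytokines, and holds resident macrophages called Kupffer cells. Levels below are CPM, counts scaled to the library total with a correction by the trimmed mean of M-values (TMM), which are not corrected for gene length and so compare libraries, not genes.

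Total counts ranged from 6826534 to 27832271 per library, and a count of 0 allows up to 0.439 CPM in the shallowest library and 0.108 CPM in the deepest, from counting error only. All 12 libraries matched their labelled sex. The most abundant hepatocyte markers (Alb, Apoa1, Ttr and others, 9 genes) summed to between 93735 and 127911 CPM. Several libraries stood apart. IVF female 1 and natural female 2 were shallow, with 6826534 and 8056230 counts, and had Gapdh at 308 and 261 CPM against 31.6 to 111 CPM in the other 10. Natural female 3 carried placental transcripts, 28546 counts over 16 such genes (0.1996% of its counts), where the other 11 libraries had 2 to 161. Natural males 2 and 3 had high acute-phase transcripts, given with that list below.

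No gene passed the interaction test at a Benjamini-Hochberg adjusted p under 0.05 with edgeR's quasi-likelihood test (0% called). The smallest adjusted p was 0.314, for Abcd2, which is not an opposed gene, and the smallest among opposed genes was 0.878, for Esr1. An unadjusted interaction p under 0.05 was found for 511 genes (3.87%), of which 266 (2.01%) were higher in IVF females and lower in IVF males and 224 (1.70%) the reverse. The split depended on scaling, since scaling by library size alone gave 99 and 513 and moved the median interaction of all genes from 0.03 to 0.23 on the log2 scale. DESeq2's Wald test, an alternative, called 9 genes (0.0682%), 8 of them opposed. Within the sexes, edgeR called 0 genes in females (0%; DESeq2 4, and 488 genes, 3.70%, at an unadjusted p under 0.05) and 1, Abcd2, in males (0.00757%; DESeq2 5, and 355 genes, 2.69%). Directions below are therefore descriptions of these 12 livers, and no gene is called changed unless a test is named.

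A stricter view asked for complete separation, every IVF library above or below every natural library of the same sex. In both sexes at once, 33 genes (0.250%) were higher in all IVF females and lower in all IVF males, and 45 (0.341%) were the reverse. Separation in the same direction in both sexes was seen for 25 genes higher (0.189%) and 17 lower (0.129%). Taken sex by sex, 469 genes (3.55%) were higher and 511 (3.87%) lower in all IVF females, and 640 (4.85%) were higher and 537 (4.07%) lower in all IVF males. With so few libraries in a group, complete separation also arises by chance. A random order of the libraries would give single-sex shares no smaller than these. For opposite directions it would give shares close to the 0.250% and somewhat below the 0.341% seen. These counts alone therefore do not show an IVF effect, and no test against chance was made. The counts of genes separated in opposite directions were 43 to 81 and 61 to 105 when 1 library was left out, where fewer libraries make separation easier. They moved with scaling, to 13 and 94 with library size alone.

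**Figure D1:**
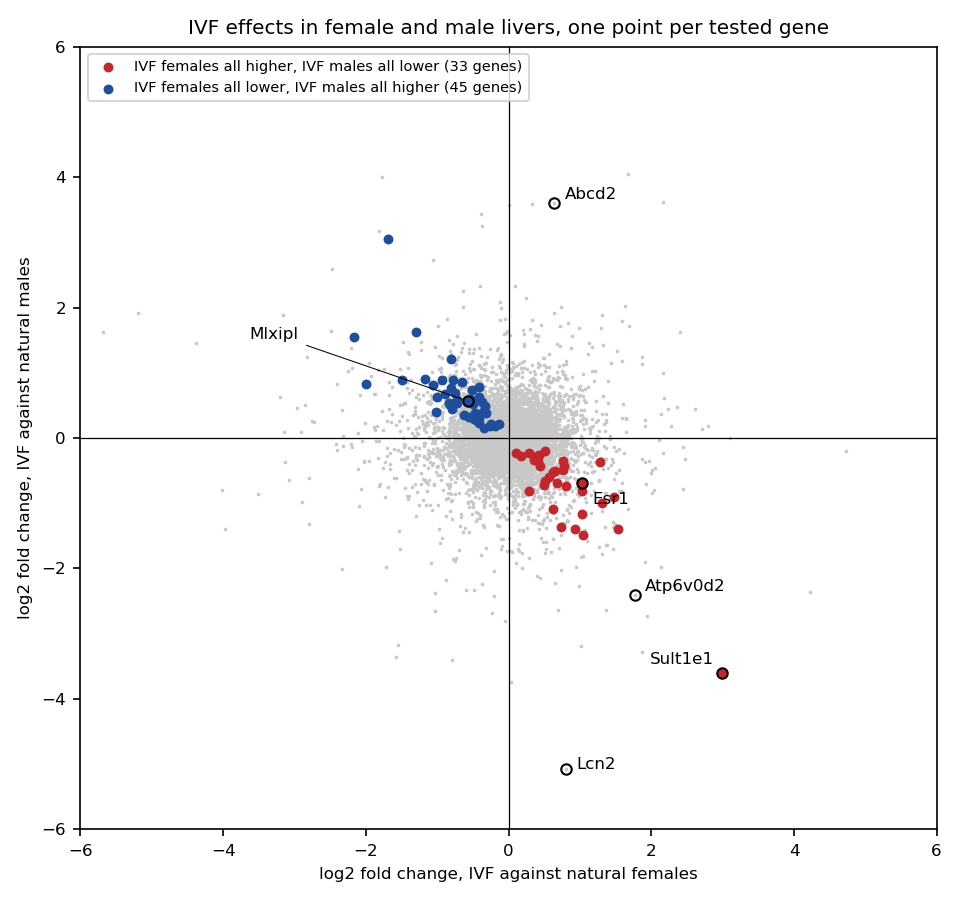
Log2 fold change of IVF against natural livers in females (horizontal axis) and males (vertical axis), with 1 point for each of the 13204 tested genes, 6 of them outside the axis limits. Red points are the 33 genes higher in every IVF female and lower in every IVF male, blue points are the 45 with the reverse, and circled genes are named in the text. Abcd2 lies where both effects are positive, and Esr1, Sult1e1, Atp6v0d2 and Lcn2 lie where females are positive and males negative.

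The membership rule has no size threshold, so its edge lies at an effect of 0. Just inside, Ppp1r3c, a glycogen-targeting subunit of protein phosphatase 1, had a female log2 fold change of -1.10 and a male one of 0.00, positive by less than the rounding. Just outside, the long noncoding RNA Meg3 had -1.49 in females and 0.00 in males, negative by less than the rounding. The named genes that follow were taken from the genes without overlap in both sexes and with at least 5 CPM in a group, 19 and 22 genes, of which the 12 of smallest interaction p were kept in each pattern. Their lack of overlap is thus the rule of choice and not separate evidence, since chance alone could yield such genes.

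Esr1, which encodes estrogen receptor alpha (chromosome 10, 4611593 to 5005614, GRCm38), had the smallest interaction p of the opposed genes. Its levels were 67.2, 74.3 and 68.5 CPM in IVF females and 37.9, 27.6 and 37.2 CPM in natural females. In males they were 16.8, 14 and 10.5 CPM after IVF and 17.4, 22.6 and 26.9 CPM after natural conception. The groups did not overlap in either sex, although IVF male 1 and natural male 1 differed little. The log2 fold change was 1.03 ± 0.22 (SE) in females and -0.70 ± 0.22 in males, an interaction of -1.73 ± 0.31 (edgeR unadjusted p = 0.000143, adjusted p = 0.878; DESeq2 adjusted p = 0.000756). Averaged over both modes of conception, Esr1 was 1.48 log2 units lower in males than in females (edgeR adjusted p = 0.000166), and the male minus female difference was -0.62 in natural and -2.35 in IVF livers.

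Sult1e1, the estrogen sulfotransferase that inactivates estrogens (chromosome 5, 87575969 to 87591594), was a low transcript with the same directions. IVF females had 3.86, 2.95 and 14 CPM and natural females 0.160, 2.28 and 0.637 CPM. IVF males had 1, 2 and 0 counts and natural males 9, 5 and 38 counts. The pooled male ratio of IVF to natural was 0.0707 with an exact 95% interval of 0.0141 to 0.218, which covers counting error only. The fitted interaction was -6.60 ± 1.62 (edgeR adjusted p = 1, DESeq2 adjusted p = 0.0333), and its male part rests on those 3 counts.

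Some genes of drug and metabolite handling were among the named genes higher in IVF females and lower in IVF males. A list of 27 P450 and drug metabolism genes did not share this direction. Of these, 7 had this pattern (25.9%, against 23.5% of all genes) and 5 the reverse. The list's median log2 fold change was 0.09 in females and 0.04 in males. Por, the reductase that passes electrons to all microsomal cytochrome P450 enzymes, was at 632, 660 and 654 CPM in IVF females and 403, 422 and 555 CPM in natural females. In IVF males it was at 381, 396 and 413 CPM, below the 905, 443 and 622 CPM of natural males. The 3 IVF livers of each sex lay within a narrow range and the natural livers were spread. The interaction was -1.22 ± 0.35 (edgeR unadjusted p = 0.00434). Cyp1a2, a P450 enzyme that metabolizes caffeine and estrogens, was at 1113, 617 and 692 CPM in IVF females, 511, 467 and 598 CPM in natural females, 591, 707 and 623 CPM in IVF males and 1130, 783 and 846 CPM in natural males. Its smallest IVF female exceeded the largest natural female by little, and the interaction was -1.14 ± 0.35 (edgeR unadjusted p = 0.00734). Slc22a7, the organic anion transporter OAT2, had an interaction of -1.84 ± 0.54 (edgeR unadjusted p = 0.00544), with 27.0, 30.1 and 31.7 CPM in IVF females against 25.4, 8.51 and 9.10 CPM in natural females. In males it was at 18.3, 32.1 and 17.7 CPM after IVF and 38.7, 34.9 and 45.6 CPM after natural conception. Slc23a1, a sodium-dependent vitamin C transporter on chromosome 18, had 135, 74.7 and 105 CPM in IVF females, 63.1, 60.3 and 56.9 CPM in natural females, 36.6, 70.1 and 42.7 CPM in IVF males and 81.5, 74.2 and 94.3 CPM in natural males. The order of the sexes differed between the modes of conception for Slc23a1, with natural males above natural females and every IVF male below every IVF female.

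The remaining 6 genes of this pattern had smaller levels or smaller differences. Il13ra1, a receptor subunit for interleukins 4 and 13, had an interaction of -1.17 ± 0.32, with 80.6, 56.0 and 66.5 CPM in IVF females and 49.9, 42.1 and 49.996 CPM in natural females. Its males were at 33.3, 30.4 and 27.9 CPM after IVF and 33.3, 61.2 and 49.9 CPM after natural conception, so that the highest IVF and the lowest natural male agreed to 3 digits. Ngef, a guanine nucleotide exchange factor, was at 35.8, 39.3 and 42.9 CPM in IVF females, 31.5, 28.0 and 27.7 CPM in natural females, 23.7, 27.3 and 25.5 CPM in IVF males and 37.2, 31.5 and 33.9 CPM in natural males. Its interaction of -0.86 ± 0.21 was among DESeq2's calls (adjusted p = 0.031). Txndc16, a thioredoxin domain protein, and Adamts5, an extracellular protease that cleaves aggrecan, had interactions of -1.16 ± 0.30 and -1.12 ± 0.32 at levels between 1.58 and 5.94 CPM. Prnp, the prion protein, and Brip1os, a transcript antisense to Brip1, had -0.69 ± 0.22 and -0.68 ± 0.22. Whether counting used the strand is not given in the sources used here, so reads of Brip1os and of the gene it overlaps cannot be told apart.

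The 12 named genes of the reverse pattern included transcription factors, a ubiquitin ligase and cytoskeletal genes, mostly at low levels. Mlxipl, which encodes ChREBP, the transcription factor that turns on glycolytic and lipogenic genes in response to glucose (chromosome 5, 135089890 to 135138382), was the most abundant of them. It was at 189, 142 and 142 CPM in IVF females and 217, 190 and 294 CPM in natural females. IVF males had 126, 213 and 191 CPM and natural males 114, 124 and 120 CPM. The closest IVF and natural livers differed by little in each sex, and the fold was 1.48 in both, downward in females and upward in males. The interaction was 1.13 ± 0.33 (edgeR unadjusted p = 0.00517, adjusted p = 1).

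Kifc2, a kinesin motor, had the smallest unadjusted p of these 12 genes, with an interaction of 1.25 ± 0.31 (edgeR unadjusted p = 0.00164). It was at 5.49, 4.78 and 5.47 CPM in IVF females, 8.62, 10.9 and 7.88 CPM in natural females, 6.18, 6.45 and 6.81 CPM in IVF males and 4.29, 5.99 and 3.95 CPM in natural males. Leng8, a nuclear protein that takes part in messenger RNA processing, was at 41.7, 36.3 and 33.7 CPM in IVF females and 42.8, 52.3 and 64 CPM in natural females. Its males were at 34.7, 54.4 and 34.4 CPM after IVF and 21.3, 29.7 and 23.3 CPM after natural conception, and the interaction was 1.24 ± 0.33 (edgeR unadjusted p = 0.00254). Siah1a, a ubiquitin ligase, had 5.05, 5.78 and 7.14 CPM in IVF females, 8.46, 10.3 and 9.21 CPM in natural females, 6.04, 5.95 and 5.30 CPM in IVF males and 4.43, 4.94 and 4.15 CPM in natural males. In all 3 genes every natural female lay above every natural male.

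Chromatin and transcription genes in this pattern included Kat5, the histone acetyltransferase Tip60, with an interaction of 0.76 ± 0.25. Kat5 was at 11.1, 9.69 and 10.6 CPM in IVF females, 12.8, 15.2 and 12.3 CPM in natural females, 10.6, 11.9 and 11 CPM in IVF males and 7.31, 9.94 and 8.14 CPM in natural males. The transcription factors E4f1 and Tfap4 had interactions of 1.05 ± 0.30 and 1.30 ± 0.39. Zswim8, a subunit of the ubiquitin ligase that degrades Argonaute bound to certain microRNA targets, had 0.64 ± 0.21, with 27.5, 33.0 and 29.3 CPM in IVF females against 39.3, 35.6 and 45.1 CPM in natural females and 40.6, 40.6 and 44.5 CPM in IVF males against 34.4, 35.7 and 37.5 CPM in natural males. The other members were the noncoding host transcript Snhg17 at 1.19 ± 0.31, the kinase Mapk15 at 1.86 ± 0.58, Heatr6 at 0.78 ± 0.24 and Tubgcp3, a gamma-tubulin complex component, at 0.87 ± 0.29. All 26 genes named up to here or through the interaction's earlier leaders (the 24 above, Abcd2 and Atp6v0d2) kept the sign of both effects and of the interaction in all 23 alternative settings. For the 24, the choice of genes without overlap largely fixes this where libraries are left out.

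**Figure D2:**
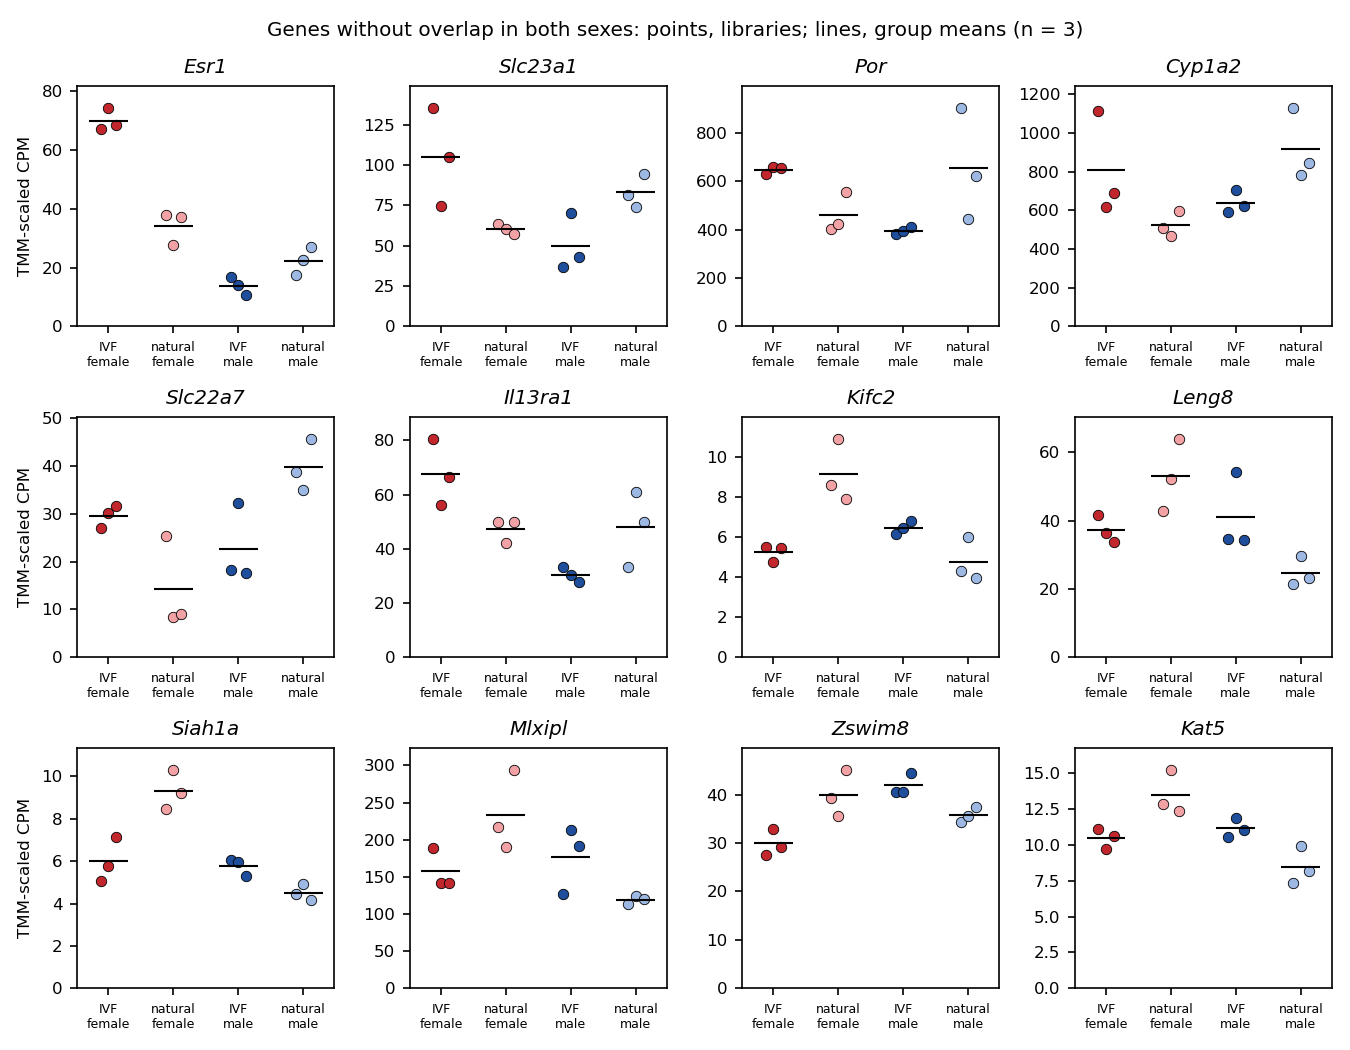
TMM-scaled CPM (vertical axes, each from 0) of 12 of the named genes in the 4 groups, with 1 point per library and a line at each group mean (n = 3). Esr1 to Il13ra1 have every IVF female above every natural female and every IVF male below every natural male, and Kifc2 to Kat5 have the reverse. Mlxipl in males and Slc22a7 in females show how close the nearest libraries of the groups can lie.

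DESeq2's other calls were mixed in how many libraries carried them. Atp6v0d2, a subunit of the vacuolar proton pump, had 69.2, 35.3 and 45.1 CPM in IVF females and 12.3, 20.1 and 11.7 CPM in natural females, without overlap. IVF males had 1.1, 0.984 and 0.250 CPM and natural males 0.822, 4.39 and 6.92 CPM, where natural male 1 lay below the higher IVF males. The interaction was -4.17 ± 0.90 (DESeq2 adjusted p = 0.00888, edgeR adjusted p = 1), with a range of -4.65 to -1.87 over the alternatives. Slc15a2, a peptide transporter, had 3.86, 5.20 and 0.171 CPM in IVF females and 0 to 0.290 CPM in natural females, so that its female effect rests on IVF females 1 and 2. In males it was at 0 to 0.275 CPM after IVF and 0.395 to 0.849 CPM after natural conception.

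The noncoding transcript C730036E19Rik was at 3.27, 3.28 and 2.22 CPM in IVF females against 18.4, 33.7 and 13.9 CPM in natural females, while its male groups overlapped widely, at 17.5, 27.4 and 11 CPM and 11.9, 20.4 and 20.001 CPM. Its male log2 fold change of 0.10 ± 0.38 was smaller than its standard error, so that the opposite direction is nominal. The collagen gene Col5a2 was at 2.18 to 2.82 CPM in IVF females and at 6.34, 34.3 and 18.0 CPM in natural females, with a male effect of 0.47 ± 0.54. Tmem51 was at 4.16, 4.53 and 4.92 CPM in IVF females, 14.9, 10.3 and 11.2 CPM in natural females, 11.1, 3.30 and 6.86 CPM in IVF males and 3.47, 3.74 and 4.39 CPM in natural males. Abcd2, a peroxisomal transporter of very long chain fatty acids and the only gene called within a sex by edgeR (males, adjusted p = 0.00381), was higher after IVF in both sexes, at log2 0.64 ± 0.28 in females and 3.61 ± 0.35 in males, and so lies outside the opposed genes. Its call in males was lost without natural male 2 or natural male 3 and with limma voom.

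Pathway lists were described by their members' counts and medians beside those of all tested genes, for which the median log2 fold change was -0.01 in females and 0.01 in males and the median interaction 0.03. Of 37 lists, 34 had at least 5 tested genes, and 25 of these had medians of opposite sign in the sexes. The 7 with a median interaction of at least 0.5 in size all had a positive female and a negative male median in the fit reported. The male median was 0 or above under at least 1 alternative in 6 of the 7 (all but the Kupffer cell markers), and with library size alone it was 0 for the female-biased and 0.07 for the neutrophil list. The other 27 had medians between -0.49 and 0.39. Among these, 24 of 28 complement and coagulation genes, none at an unadjusted interaction p under 0.05, and 18 of 25 urea cycle and amino acid genes, 1 at such a p, were higher in IVF females and lower in IVF males, where 23.5% of all genes had that pattern and 3.87% such a p. No test of these shares was made. Among the 1516 genes at 100 CPM or more the share with that pattern was 36.8%, and the lists were not matched for level.

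Cholesterol synthesis, whose enzymes turn acetyl-CoA into cholesterol, had 18 of 20 tested genes higher in IVF females and lower in IVF males, against 23.5% of all genes, and 0 the reverse. Its median log2 fold change was 0.98 in females and -0.17 in males. All 20 genes were higher in IVF females by their fitted effect, and the male effects were small. Fdft1, squalene synthase, was the only gene of the list without overlap in females, at 190, 61.1 and 169 CPM against 37, 53 and 61 CPM, and its males overlapped at 79.5, 130 and 53.9 CPM after IVF and 57.1, 121 and 111 CPM after natural conception. The log2 fold change was 1.47 ± 0.45 in females and -0.13 ± 0.44 in males, an interaction of -1.61 ± 0.63 (edgeR unadjusted p = 0.0254, adjusted p = 1). Mvd, the mevalonate decarboxylase, had a female effect of 2.17 ± 0.79 and a male one of -0.23 ± 0.74, with male levels of 22.5, 28.7 and 16.3 CPM after IVF and 5.34, 27.4 and 46.7 CPM after natural conception. Dhcr7, Ebp and Fdps, which act later or earlier in the same pathway, had interactions of -1.75 ± 0.81, -0.51 ± 0.25 and -1.40 ± 0.73.

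The 12 tested targets and regulators of SREBP2 had 9 genes in the same pattern and 0 in the reverse, with medians of 0.78 in females and -0.24 in males. Insig1, which holds SREBP2 in the endoplasmic reticulum when sterols are plentiful, was at 911, 285 and 481 CPM in IVF females and 116, 186 and 419 CPM in natural females, and at 408, 475 and 250 CPM in IVF males and 409, 415 and 636 CPM in natural males. The groups overlapped in both sexes, and the interaction was -1.58 ± 0.70 (edgeR unadjusted p = 0.0439, adjusted p = 1). Insig2, Scap and Aacs had the same direction in both sexes. The male direction of both lists depended on few animals. The mean log2 level of the cholesterol genes, centred on each gene's mean over 12 libraries, was 0.18, 0.68 and -0.73 in IVF males and -0.26, 0.52 and 0.69 in natural males, which overlap. Without IVF male 3 the male median of cholesterol synthesis turned to 0.10 and that of the SREBP2 list was -0.05, and without natural males 2 and 3 it was 0.37 for cholesterol synthesis and 0.16 for the SREBP2 list, which left interactions of -0.49 and -0.47. In females the medians fell by over 1.5 times without IVF female 3, to 0.63 and 0.46. The female means of the cholesterol genes also overlapped, at 0.62, -0.58 and 0.89 after IVF and -1.27, -0.73 and -0.03 after natural conception. On the SREBP2 list IVF female 2, at -0.27, lay below natural female 3, at -0.005.

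Interferon-stimulated genes, the antiviral program that cells switch on after interferon binds its receptor, had 30 of 41 tested genes higher in IVF females and lower in IVF males and 1 the reverse, with medians of 0.51 and -0.26, where 23.5% of all genes had the first pattern. An unadjusted interaction p under 0.05 was found for 15 of the 41 (against 3.87% of all genes), 14 of them in the first pattern. In females 37 of 41 genes were higher after IVF, 11 of them without overlap, where 3.55% of all genes were higher without overlap. In males 5 genes were lower without overlap (background 4.07%). Oas3, one of the enzymes that make 2-5A and so activate RNase L, was the only listed gene among the 6 of smallest p without overlap in both sexes. It was at 2.23, 1.33 and 1.5 CPM in IVF females, 1.04, 0.240 and 0.927 CPM in natural females, 0.755, 0.443 and 0.1 CPM in IVF males and 1.23, 0.999 and 1.30 CPM in natural males. Its interaction was -2.53 ± 0.80 (edgeR unadjusted p = 0.0087, adjusted p = 1).

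Isg15, a ubiquitin-like modifier, was at 5.34, 2.99 and 3.89 CPM in IVF females and 2.53, 1.80 and 2.49 CPM in natural females, without overlap. Its males were at 4.67, 3.49 and 3.80 CPM after IVF and 3.20, 6.84 and 5.49 CPM after natural conception, where the groups overlapped, and the interaction was -1.17 ± 0.45. Zbp1, a sensor of left-handed nucleic acids, had 15.7, 6.61 and 6.67 CPM in IVF females, 2.89, 6.23 and 3.01 CPM in natural females, and overlapping males, with an interaction of -1.92 ± 0.68. Xaf1, Herc6 and Ifi44 had -1.47 ± 0.50, -1.02 ± 0.40 and -2.41 ± 0.96, and Ifi44 in females leaned on IVF female 1, at 8.31 CPM against 1.29 and 1.41 CPM in IVF females 2 and 3. Over the list, IVF female 1, which is 1 of the shallow libraries, was the highest of all 12 at a centred mean of 0.80, and all IVF females (0.13 to 0.80) lay above all natural females (-0.26 to -0.04). IVF males (-0.38 to -0.20) overlapped natural males (-0.28, 0.34 and 0.06). Without IVF female 1 the female median was 0.31. The male median was -0.12 without natural male 2 alone, and without natural males 2 and 3 it was 0.09 and the interaction -0.55. Lymphocyte markers (14 genes, of which 12 were tested) summed over all 14 to 32.6 to 47.6 CPM in IVF females and 22.1 to 31.4 CPM in natural females. In IVF and natural males these markers summed to 10.8 to 15.9 CPM and 14.6 to 16.2 CPM, and their part in the interferon genes was not tested.

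Acute-phase genes, which hepatocytes transcribe in response to interleukin 6 and interleukin 1, had 24 of 33 tested genes higher in IVF females and lower in IVF males and 1 the reverse, against 23.5% of all genes in the first pattern, and 16 at an unadjusted interaction p under 0.05, against 3.87% of all genes. The medians were 0.24 in females and -0.88 in males. The female median rested on IVF female 1 and natural female 3, since it was 0.03 without the former and 0.09 without the latter. The centred list means of females overlapped, at 0.37, -0.38 and -0.29 after IVF and -0.19, -0.04 and -0.72 after natural conception. Itih3, an inhibitor subunit that binds hyaluronan, was at 1803, 1065 and 1269 CPM in IVF females and 953, 944 and 862 CPM in natural females, without overlap. In males it was at 1100, 941 and 516 CPM after IVF and 1069, 2135 and 1833 CPM after natural conception. The interaction was -1.56 ± 0.47 (edgeR unadjusted p = 0.00598, adjusted p = 1). Steap4, a metalloreductase induced in inflammation, was at 231, 164 and 142 CPM in IVF females against 121, 110 and 119 CPM in natural females, and at 125, 84.0 and 135 CPM in IVF males against 149, 198 and 120 CPM in natural males. Its interaction was -1.06 ± 0.36.

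Lcn2, an iron-sequestering lipocalin, had the widest range. It was at 181, 25.2 and 48.8 CPM in IVF females, 46.4, 90.6 and 9.27 CPM in natural females, 57.2, 13.0 and 13.0 CPM in IVF males and 14.7, 1615 and 1173 CPM in natural males. Only natural males 2 and 3 were high, and natural male 1 lay among the IVF males. Its interaction of -5.88 ± 1.87 (edgeR unadjusted p = 0.00861) ranged from -6.97 to 0.12 over the alternatives and lost its sign without those animals. Saa3, a serum amyloid, was at 174 and 115 CPM in the same 2 males and at 1.58 to 13.9 CPM in the other 10 libraries, and Serpina3n, a serine protease inhibitor, was at 2484 and 2274 CPM in them and at 472 to 845 CPM in the others. Hpx, hemopexin, which binds free heme, was at 10662 and 8543 CPM in them and at 1717 to 4609 CPM in the others. Without natural males 2 and 3 the list's male median was 0.01 and its interaction -0.25, so that the lower male level of this list was not seen without them. Crp and Stat3 were lower in all IVF males, at 305 to 366 against 508 to 632 CPM and at 78.0 to 111 against 111 to 133 CPM.

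Promoter sequences are shown for 6 of these genes. RefSeq promoters of GRCm38.p6 were searched on both strands, from 250 bases before to 50 after each start, for 10 motifs. Counts below are of promoters, not genes, since some genes had more than 1 promoter and others had none. Promoters were found for 30 of 41 interferon-stimulated, 27 of 34 acute-phase and 15 of 20 cholesterol synthesis genes. They were also found for 10 of 13 genes of the SREBP2 list and 28 of 39 of the female-biased list. The interferon element, GAAA followed after any 2 bases by GAAA, was found in 20 of 34 promoters of the interferon-stimulated list (58.8%), against 3.44% of all 32851 promoters. Its looser form, without the first G, was in 24 of 34 (70.6%) against 10.6%. TTGCNNAA, letters bound by CEBP factors, was found in 14 of 30 acute-phase promoters (46.7%) against 10.8%, and TTCCNGGAA, letters bound by STAT3, in 2 of 30 (6.67%) against 1.15%. The CEBP palindrome was in 1 of 30 (3.33%) against 0.183%. CCAAT, the box of NF-Y, was found in 14 of 18 cholesterol synthesis promoters (77.8%) and 8 of 14 SREBP2 promoters (57.1%) against 37.4%. The sterol element CACNCCAC was found in 2 of 18 of these (11.1%) and 1 of 14 SREBP2 promoters (7.14%) against 6.24%, and a longer form of it in 0 of either against 0.0913%. A CCAAT box spaced 10 bases before CAC was in 0 of 18 cholesterol synthesis promoters against 1.03%, and the estrogen element in 0 of 38 promoters of the female-biased list against 0.07%. The promoters shown were chosen after the matches were seen, a match is a description of the letters and not a measured binding site, and capitals mark the matches, some of which read on the opposite strand. The 250 bases before the start are printed 5′ to 3′ on the strand of the gene.
Oas3 promoter, chr5:120777660-120777909, minus strand: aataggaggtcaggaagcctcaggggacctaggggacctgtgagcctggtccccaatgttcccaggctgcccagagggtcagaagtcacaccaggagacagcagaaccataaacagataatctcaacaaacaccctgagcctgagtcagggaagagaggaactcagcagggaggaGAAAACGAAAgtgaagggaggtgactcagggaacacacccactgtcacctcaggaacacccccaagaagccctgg
Isg15 promoter, chr4:156200819-156201068, minus strand: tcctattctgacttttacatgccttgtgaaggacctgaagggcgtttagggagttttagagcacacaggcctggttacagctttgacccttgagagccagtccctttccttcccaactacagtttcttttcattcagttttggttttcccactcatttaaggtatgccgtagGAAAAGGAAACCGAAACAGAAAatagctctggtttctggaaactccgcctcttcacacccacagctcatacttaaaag
Lcn2 promoter, chr2:32387740-32387989, minus strand: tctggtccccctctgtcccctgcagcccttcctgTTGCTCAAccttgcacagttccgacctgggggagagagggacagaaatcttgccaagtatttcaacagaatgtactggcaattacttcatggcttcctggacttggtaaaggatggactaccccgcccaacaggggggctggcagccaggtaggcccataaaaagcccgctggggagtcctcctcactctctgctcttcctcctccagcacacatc
Steap4 promoter, chr5:7960222-7960471, plus strand: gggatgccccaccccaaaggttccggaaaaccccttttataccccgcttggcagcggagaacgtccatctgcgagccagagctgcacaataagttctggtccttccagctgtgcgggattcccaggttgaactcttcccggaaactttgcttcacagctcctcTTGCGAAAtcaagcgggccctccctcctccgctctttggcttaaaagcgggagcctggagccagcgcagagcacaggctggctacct
Mvd promoter, chr8:122443423-122443672, minus strand: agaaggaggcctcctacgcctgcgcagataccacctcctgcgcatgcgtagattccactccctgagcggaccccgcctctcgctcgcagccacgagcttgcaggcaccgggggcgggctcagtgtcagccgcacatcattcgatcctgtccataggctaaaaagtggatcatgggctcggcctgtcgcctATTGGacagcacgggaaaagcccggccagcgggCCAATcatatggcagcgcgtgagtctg
Insig1 promoter, chr5:28071162-28071411, plus strand: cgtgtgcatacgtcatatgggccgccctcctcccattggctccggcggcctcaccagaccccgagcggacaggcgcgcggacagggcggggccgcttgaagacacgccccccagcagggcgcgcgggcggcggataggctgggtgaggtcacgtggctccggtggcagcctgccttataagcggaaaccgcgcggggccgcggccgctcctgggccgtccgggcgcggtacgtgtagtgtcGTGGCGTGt

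Isg15 has 3 overlapping matches to the interferon element in a single run, and Oas3 has 1. Lcn2 and Steap4 each have 1 match to TTGCNNAA, Mvd has 2 to CCAAT, 1 of them on the opposite strand, and Insig1 has 1 to CACNCCAC on the opposite strand, just before its start.

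Kupffer cell and macrophage markers were lower in IVF males more evenly over the alternatives than the acute-phase genes. Of 14 tested markers, 11 were higher in IVF females and lower in IVF males and 0 the reverse, with medians of 0.19 and -0.64. In males 9 of 14 were lower in every IVF than in every natural liver, where 4.07% of all genes were, and in females 0 were without overlap. Cd5l, a scavenger protein secreted by macrophages, was at 76.5, 45.4 and 48.2 CPM in IVF males and 101, 108 and 94.8 CPM in natural males. In females it was at 110, 139 and 91.9 CPM after IVF and 79.4, 67.6 and 118 CPM after natural conception, and the interaction was -1.20 ± 0.37 (edgeR unadjusted p = 0.00714, adjusted p = 1). Clec4f, a lectin specific to Kupffer cells, was at 57.0, 48.2 and 61.6 CPM in IVF males and 92.1, 63.8 and 78.5 CPM in natural males. Its females overlapped, at 122, 134 and 89.2 CPM and 96.1, 83.6 and 106 CPM, and the interaction was -0.76 ± 0.29.

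Folr2, a folate receptor, and Adgre1, which encodes F4/80, had interactions of -1.08 ± 0.37 and -1.18 ± 0.44, with males without overlap in both. The complement genes C1qb and C1qc, made by macrophages in the liver, had -0.76 ± 0.32 and -0.84 ± 0.36. Cd68 and Lyz2, also among the 14 markers, had male effects of 0.02 and -0.03. The summed level of the 14 markers was 268 to 437 CPM in IVF males and 466 to 522 CPM in natural males, and 525 to 738 CPM and 536 to 646 CPM in IVF and natural females. The centred list means of males overlapped narrowly, at -0.2004, -0.92 and -0.76 after IVF and -0.01, 0.13 and -0.2010 after natural conception. Fewer cells of a type and less of their RNA per cell cannot be told apart in whole liver. Without natural males 2 and 3 the male median was -0.80, and over all alternatives it lay between -0.81 and -0.50, so the lower levels in IVF males did not rest on them. The female median was 0.06 without IVF female 1 and 0.36 without IVF female 3. The summed hepatocyte markers were also lower in IVF males, at 93735 to 109248 CPM against 116287 to 118950 CPM, and the part of either in the other was not tested. Of 12 endothelial markers, 9 were higher in IVF females and lower in IVF males and 0 the reverse, with medians of 0.07 and -0.20. In males 3 of the 12 were lower without overlap, where 4.07% of all genes were. None had an unadjusted interaction p under 0.05. Neutrophil markers had only 5 tested genes of 10, and all 10 summed to 2.16 to 9.75 CPM over the libraries. The median interaction of the tested genes, -0.54, took either sign among the alternatives.

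Genes known to be higher in female than in male liver had 15 of 37 tested members higher in IVF females and lower in IVF males (40.5%, against 23.5% of all genes) and 3 the reverse. The medians were 0.26 in females and -0.15 in males, and the interaction -0.58. In 6 of the 37, Sult1e1 among them, at least 1 of the 4 groups held at most 3 counts over its libraries. In 3 of these both male groups did, so that no male direction was measured. Of the other 31 genes, 12 were in the first pattern (38.7%) and 3 in the reverse. Besides Atp6v0d2 and Sult1e1, Cyp2b13, a female-specific P450 enzyme, was at 335, 428 and 414 CPM in IVF females and 138, 185 and 239 CPM in natural females, without overlap. Its males had 0 to 0.886 CPM after IVF and 0.316 to 2.70 CPM after natural conception, near the floor. Lpl, lipoprotein lipase, was high in a single library, IVF female 3, at 276 CPM against 7.98 to 30.6 CPM in the other 11. Cyp4a10, a fatty acid hydroxylase, went the reverse way, with a female effect of -0.45 ± 0.87 and a male one of 1.59 ± 0.89. The near-identical copies of the Cyp2b genes can share reads, which makes their counts uncertain. Without natural male 1 the male median of this list was 0.19 and its interaction -0.11, and without IVF female 2 the interaction was -0.13. With single libraries left out the female median lay between 0.15 (without natural female 1) and 0.43 (without IVF female 1), and it was 0.59 without both shallow libraries.

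**Figure D3:**
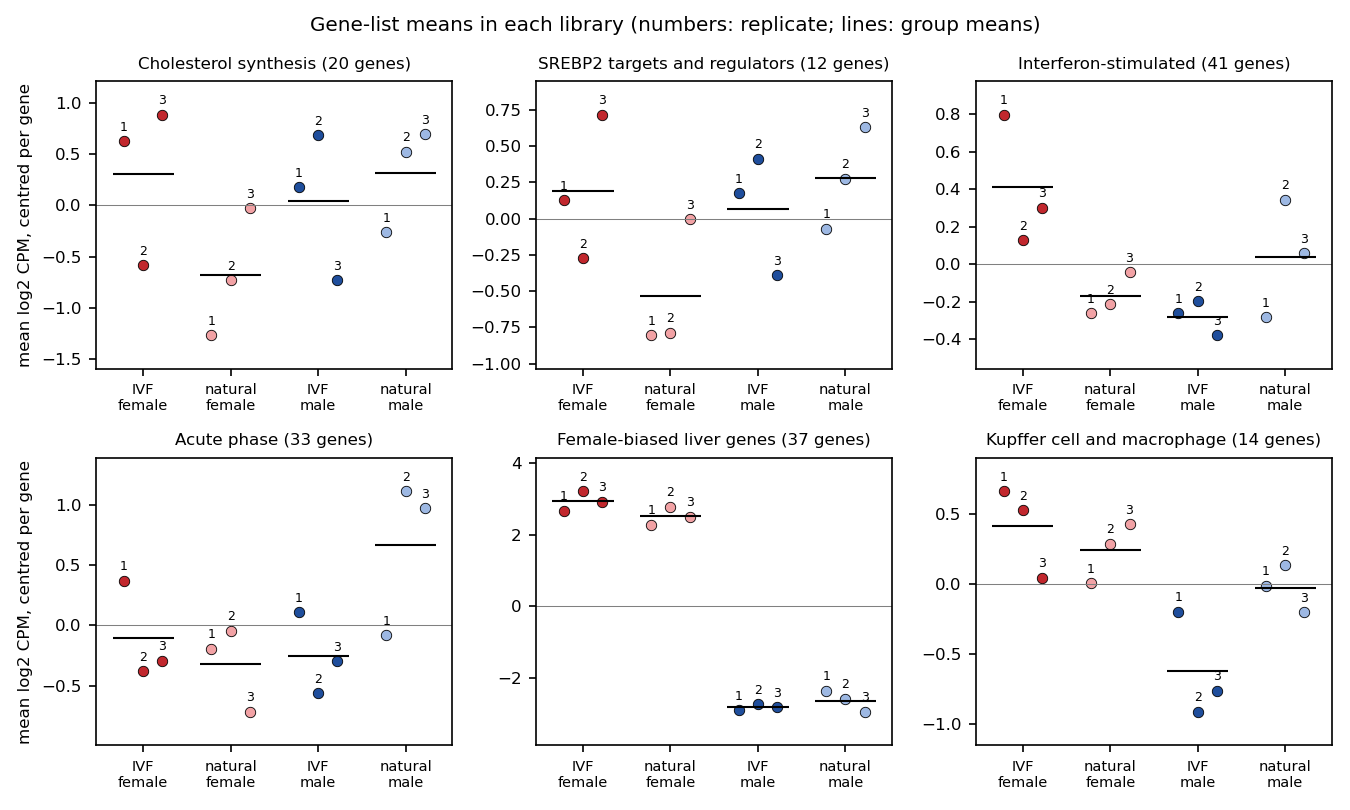
Mean over the genes of 6 lists of log2 CPM, centred on each gene's mean over the 12 libraries (vertical axes), in the 4 groups. Numbers mark the replicate and lines the group means. Natural males 2 and 3 stand above the other livers in the acute-phase panel, IVF and natural females do not overlap in the interferon-stimulated panel, and in the Kupffer cell panel 2 of the IVF males lie lowest.

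Some other properties of the genes were compared. The average difference between the sexes, a contrast orthogonal to the interaction that shares its dispersion estimate for each gene, was called for 951 of all 13204 genes (7.20%, edgeR adjusted p under 0.05), 479 higher in females (3.63%) and 472 in males (3.57%). Among the 266 genes higher in IVF females and lower in IVF males at an unadjusted interaction p under 0.05, 62 were so called (23.3%), 42 higher in females and 20 in males. Among the 224 of the reverse pattern, 20 were (8.93%), 8 higher in females and 12 in males. Of the 33 and 45 genes without overlap, 9 (27.3%) and 2 (4.44%) had such a sex difference. Sex-biased genes such as Esr1, Txndc16 and Adamts5 belong to the first pattern. These shares were not tested, and the calls of both tests share each gene's dispersion estimate.

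The order of the sexes was turned between the modes of conception in 165 of the 266 and 180 of the 224 genes, against 3704 of 13204, which the interaction itself favours. Of the 224 genes, 205 were higher in natural females than in natural males and 25 in IVF females than in IVF males. For the 266 genes these numbers were 68 and 233, and for all 13204 genes 6868 and 6472. The signs that chose the genes favour these shifts too, so they are not a separate result.

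The patterns also differed in level, biotype and base composition. The median of the highest group mean was 20.1 CPM for the 266 genes, 5.15 CPM for the 224 and 15.2 CPM for all genes. Protein-coding genes made up 96.6%, 85.3% and 95.6%. Among the 1516 most abundant genes, at 100 CPM or more, 36.8% were higher in IVF females and lower in IVF males and 15.4% the reverse, while among the 940 genes under 1 CPM these shares were 21.1% and 33.3%. The median GC content of the transcripts was 48.7%, 51.1% and 49.5%. In the fifth of genes richest in GC the median female effect was -0.12 and the median interaction 0.11. With an offset for GC content fitted in each library, 14 genes were without overlap in the first pattern and 117 in the reverse, in place of 33 and 45. Natural female 3, with its placental transcripts, belongs to the group that is high in the reverse pattern. H19, Peg10 and Igf2, imprinted genes strongly expressed in placenta, were among the opposed genes, with female effects of -6.07, -6.10 and -3.21. Without natural female 3, 188 genes of the reverse pattern passed an unadjusted p of 0.05 in place of 224, and 303 of the first in place of 266.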

How the data were processed

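Liver messenger RNA libraries of 12 mice, 3 per group, were analysed. The deposited table holds raw read counts, 1 row for each gene symbol. Per the submitters' processing notes, the authors used Trimmomatic 0.32, STAR 2.3.0e, featureCounts 1.5.0 and mm10, and per the labels' protocols the libraries were poly-A selected with a KAPA kit. How reads matching several genes were treated, and whether counting used the strand, is not given in the sources used here. Every column was matched to a sample by its title, 0 columns were left out, and no row lacked a gene name.

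The counts were fitted with edgeR 4.0.16 (R 4.3.3; filterByExpr by group, TMM, 1 mean per group over all 12 libraries, quasi-likelihood test, Benjamini-Hochberg adjustment, threshold 0.05). The opposed genes take their signs from the 2 fitted IVF effects, and the interaction is the male effect minus the female effect. Errors are standard errors, taken from each effect and the F of its test. The members, the 37 gene lists and the tests were chosen with earlier results of these data known. Genes were named by rule: those with an adjusted interaction p under 0.05; the 12 of smallest interaction p in each pattern among genes without overlap in both sexes and with at least 5 CPM in a group; up to 6 opposed members for each list with medians of opposite sign and a median interaction of at least 0.5 in size; Esr1, Abcd2, Sult1e1 and Atp6v0d2; and 1 gene on each side of the rule's edge. Some genes that this rule names are not reported here. Tmem51, Col5a2, Slc15a2 and C730036E19Rik (DESeq2 calls), the Gapdh levels, Crp, Stat3, Cd68, Lyz2, H19, Peg10 and Igf2 and the 16 placental genes were picked after their values were seen. Alternatives were DESeq2 1.42.0, limma 3.58.1 voom, other scalings and filters, a robust fit, treatment of the 2 shallow libraries and leaving out libraries, and, added after seeing the data, a GC offset (loess, span 0.5) and leaving out natural males 2 and 3 together. The fit was also run on simulated counts, and its outcome is not reported here. Positions, biotypes and GC content come from GENCODE for GRCm38, where 23805 symbols matched by name, 343 by synonym and 379 not. Replicates of a group differed by more than counting noise (lowest chi-square per degree of freedom 83.3), and total counts set the floor of each library at 3 counts.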

Additional observations from a re-analysis of the deposited data

How the results depend on the processing

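Over 23 alternatives, 283 of 340 recomputed counts and list medians stayed within the tolerance used. This was 1.5 times for counts and, for list medians, the same sign and a shift of less than 1 SD between replicates. It was wide for the neutrophil list, where it took in -0.04 without natural male 1 beside -0.54. The 26 named genes kept the sign of their interaction. For those chosen for lack of overlap, that choice largely fixes the sign where libraries are left out, so this is not separate evidence. Of the 26, 5 (Esr1, Sult1e1, Ngef, Abcd2 and Atp6v0d2) passed an adjusted p under 0.05, only with DESeq2. DESeq2 called 9 genes for the interaction, 4 in females, 5 in males and 1693 for the average sex difference. limma voom called 0 in males and gave a female-biased list median of -0.33. Library size alone gave 1625 sex differences, 99 and 513 opposed genes at an unadjusted p under 0.05, and 13 and 94 without overlap. A covariate for the 2 shallow libraries gave 447 and 419 opposed genes at that p, and leaving both out gave 107 and 135 without overlap, where fewer libraries make separation easier. The GC offset gave 14 and 117. A mean of at least 1 CPM reversed the neutrophil median to 0.28. Without natural males 2 and 3 there were 0 calls in males, 262 sex differences, 166 opposed genes of the first pattern at an unadjusted p under 0.05, and 112 and 154 without overlap, and the medians were -0.49 (cholesterol), -0.47 (SREBP2), -0.25 (acute phase) and 2.75 (neutrophil, reversed). Leaving out 1 library gave 0 to 1 calls in males (0 without natural male 2 or 3), 519 to 810 sex differences (lowest without natural male 3), 175 (without natural male 3) to 320 opposed genes of the first pattern at an unadjusted p under 0.05, 43 to 81 and 61 to 105 without overlap, and medians of -1.20 to -0.46 (SREBP2, nearest 0 without IVF female 3), -0.73 to -0.11 (female-biased, nearest 0 without natural male 1) and -0.68 to 0.023 (neutrophil, reversed at 0.023 without natural female 2 and 0.010 without IVF male 2). Fewer libraries make separation easier in every alternative that leaves libraries out. Where no construction of the alternative is named, the cause was not tested. No paired analysis was possible because the replicate numbers follow accession order. A number shared by the titles of IVF female 1 and IVF male 2 has no stated meaning and could link at most that 1 pair. Depth limits mainly the low transcripts: a count of 0 allows up to 0.439 CPM in the shallowest library.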

Other observations

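Lists outside the 7 described in full had these values, beside 23.5% of all genes in the first pattern and 27.4% in the reverse. Of 19 lipogenic genes, 10 were higher in IVF females and lower in IVF males and 2 the reverse, with medians of 0.32 in females and -0.03 in males. Of 19 circadian clock genes, 11 had the first pattern and 3 the reverse, with medians of 0.21 and -0.07. Of 32 PPAR alpha targets and fatty acid oxidation genes, 5 had the first pattern and 11 the reverse, with medians of -0.14 and 0.10 and 1 gene at an unadjusted interaction p under 0.05. Nrf2 and antioxidant genes had 2 of 17 in the first pattern and 6 in the reverse. Of 24 proteasome genes, 1 had the first pattern and 2 the reverse, and both medians were positive, at 0.08 and 0.12. Genes known to be higher in male liver had 5 of 35 in the first pattern and 10 in the reverse, with medians of -0.09 and 0.02, smaller than those of the female-biased list.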
